A study of Mus musculus with 9 samples.

Results

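The genes described here are the cytosolic heat shock proteins and the transcription factor that drives their induction. They are *Hsf1*, the HSP70 genes *Hspa1a*, *Hspa1b* and *Hspa8*, the HSP110 gene *Hsph1*, the small heat shock protein gene *Hspb1*, the J-domain genes *Dnaja1* and *Dnajb1*, and the HSP90 genes *Hsp90aa1* and *Hsp90ab1*. They were chosen by name, with earlier results of these data known. All 10 were found among the 26858 genes of the table, and all 10 passed the filter on low counts, which left 14990 genes. RNA was sequenced from cells sorted by eGFP from kidneys at embryonic day E18.5. Both groups carried a *Six2*-eGFP/Cre transgene, in which Cre fused to eGFP is driven by the *Six2* promoter of a bacterial artificial chromosome, so that both the sort and the recombination followed *Six2* promoter activity. Controls were *Six2-Qpc* heterozygous (*Six2-Qpc*+/-) kidneys (n = 4), in which floxed *Qpc* (*Uqcrq*), a subunit of mitochondrial complex III, was inactivated on 1 allele. Mutants were *Six2-Qpc*-/- kidneys (n = 5), homozygous for the floxed allele. The labels name the sorted cells nephron progenitor cells and give no litter, sex or batch.

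In unstressed cells HSF1 is held inactive by the chaperones HSP90 and HSP70. When unfolded proteins occupy these chaperones, HSF1 is released, forms trimers and binds heat shock elements, which are arrays of inverted GAA units in the promoters of *Hspa1a*, *Hspa1b*, *Hspb1*, *Dnajb1* and other genes. *Hspa8* and *Hsp90ab1* encode the constitutive forms of HSP70 and HSP90 that fold new proteins in most cells, whereas *Hspa1a*, *Hspa1b* and *Hsp90aa1* encode the forms known to be inducible. J-domain proteins hand clients to HSP70 and HSP110 reloads it with ATP.

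The 250 bases upstream of the annotated start were searched for a heat shock element of 2 inverted units, GAANNTTC or TTCNNGAA, both of which read the same on either strand, and for 3 alternating units in a row. Promoters of 6 of the 10 genes were matched in the RefSeq promoter table used here (build GRCm38.p6), and *Hsf1*, *Hspa8*, *Hsp90aa1* and *Hsp90ab1* were not analysed here. A 2-unit element was found upstream of at least 1 annotated start in 5 of the 6 (*Hspa1a*, *Hspa1b*, *Hspb1*, *Hsph1* and *Dnaja1*). Of all 32851 promoter windows of the same length, 12.84% held one. The units differ, since a gene was counted if any of its starts had the element, whereas the background counts each window. *Dnaja1* held it at start 1 but not at starts 2 and 3, and the near-identical *Hspa1a* and *Hspa1b* count as 2 of the 5. A 3-unit element was found in 0 of the 6 genes, against 0.47% of all windows. The upstream sequences of 4 genes are shown because the inducible HSP70 pair and the 2 genes with the largest fold changes differ in this feature. They run 5′ to 3′ on the gene's strand up to the base before the start, with the 2-unit element in capitals.
Hspa1a (chr17:34972157-34972406, minus strand): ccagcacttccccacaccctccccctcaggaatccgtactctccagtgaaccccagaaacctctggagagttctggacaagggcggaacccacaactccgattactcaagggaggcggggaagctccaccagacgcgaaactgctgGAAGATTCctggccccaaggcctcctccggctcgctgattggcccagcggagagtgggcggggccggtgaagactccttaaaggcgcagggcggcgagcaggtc
Hspa1b (chr17:34959239-34959488, minus strand): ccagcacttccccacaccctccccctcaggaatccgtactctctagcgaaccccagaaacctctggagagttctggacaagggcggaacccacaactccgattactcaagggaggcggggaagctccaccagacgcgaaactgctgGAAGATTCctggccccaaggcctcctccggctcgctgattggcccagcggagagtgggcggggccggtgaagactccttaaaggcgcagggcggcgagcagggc
Hspb1 (chr5:135887669-135887918, plus strand): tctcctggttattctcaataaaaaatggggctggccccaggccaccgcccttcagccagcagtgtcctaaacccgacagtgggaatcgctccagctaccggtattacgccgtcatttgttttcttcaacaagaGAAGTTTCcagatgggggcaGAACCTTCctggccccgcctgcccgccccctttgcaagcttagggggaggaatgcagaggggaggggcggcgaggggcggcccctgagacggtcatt
Dnajb1 (chr8:83607925-83608174, plus strand): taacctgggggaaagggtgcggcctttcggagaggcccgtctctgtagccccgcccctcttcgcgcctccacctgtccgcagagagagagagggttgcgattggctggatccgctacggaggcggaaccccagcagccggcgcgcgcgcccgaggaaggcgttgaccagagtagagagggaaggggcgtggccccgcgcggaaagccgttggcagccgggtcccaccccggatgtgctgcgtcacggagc
The *Hspa1a* and *Hspa1b* sequences were 98.8% identical and differed at 3 positions, C44T, T47C and T249G, counted from 1 at the 5′ end with the *Hspa1a* base first. Each held 1 element, which began 104 bases before the start. *Hspb1* held 2, which began 117 and 97 bases before the start. In *Dnajb1* neither order of the 2 units was found in this window.

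In the libraries as a whole, *Uqcrq* was at 76.8 to 107 CPM in controls and 16.5 to 28.2 CPM in mutants (log2 fold change −2.14, edgeR adjusted p = 2.09e-05). CPM are counts per 1000000 of the TMM-normalized library size, and libraries held 21040536 to 23986458 counts, with no difference in depth beyond their spread (2-sided exact permutation test, p = 0.135). All 8 progenitor markers, *Six2* and *Cited1* among them, were expressed, with a sum of 1484 to 1819 CPM in controls and 1682 to 2003 CPM in mutants, and 0 of the 8 passed the test. Markers of other cell types were present too: 6 of 8 stroma markers were higher in mutants, with sums of 121 to 176 CPM in controls and 267 to 683 CPM in mutants, and myeloid markers summed to 2.34 to 11.1 CPM and 8.40 to 114 CPM, with 1 of 6 higher. Of the tested ureteric bud, endothelium, erythroid and podocyte or tubule markers, 1 of 3 endothelium markers was higher and 0 of 4, 0 of 1 and 0 of 3 of the others passed, and ureteric markers summed to 46.5 to 67.0 CPM in controls and 28.4 to 68.6 CPM in mutants. Of all tested genes 2225 passed the threshold (14.8%), 1172 higher in mutants (7.82%) and 1053 lower (7.02%). The labels do not say whether libraries came from separate animals, so p-values measure the spread between these libraries, and in bulk RNA a larger number of cells of a type cannot be told apart from more RNA per cell. Control library 71 stood low for the heat shock genes, and results that rest on it are also given without it. Libraries are named by genotype and number throughout.

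Of the 10 genes, 3 were higher in mutants and 0 lower at an adjusted p under 0.05, against 7.82% and 7.02% of all tested genes. These were *Hsf1* itself, the HSP40 gene *Dnajb1* and the small heat shock protein gene *Hspb1*, and in the same 3 the lowest mutant library was above the highest control library, which was so for 7.5% of all tested genes. Both held together, called and apart, for 3 of the 10 genes and for 5.65% of all tested genes. The log2 fold change was above 0 in all 10, with a median of 0.44 against a median of −0.01 over all tested genes. Without control 71 it was −0.10 for *Hspa1a* and −0.01 for *Hsph1*. Since the 10 genes were chosen with earlier results of these data known, their counts and signs are a description and not a test of the group. The inducible HSP70 genes *Hspa1a* and *Hspa1b* and the HSP110 gene *Hsph1* did not pass the test, and their libraries overlapped widely. The libraries were amplified from little RNA and keep no strand, which applies to every value below.

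**Figure D1:**
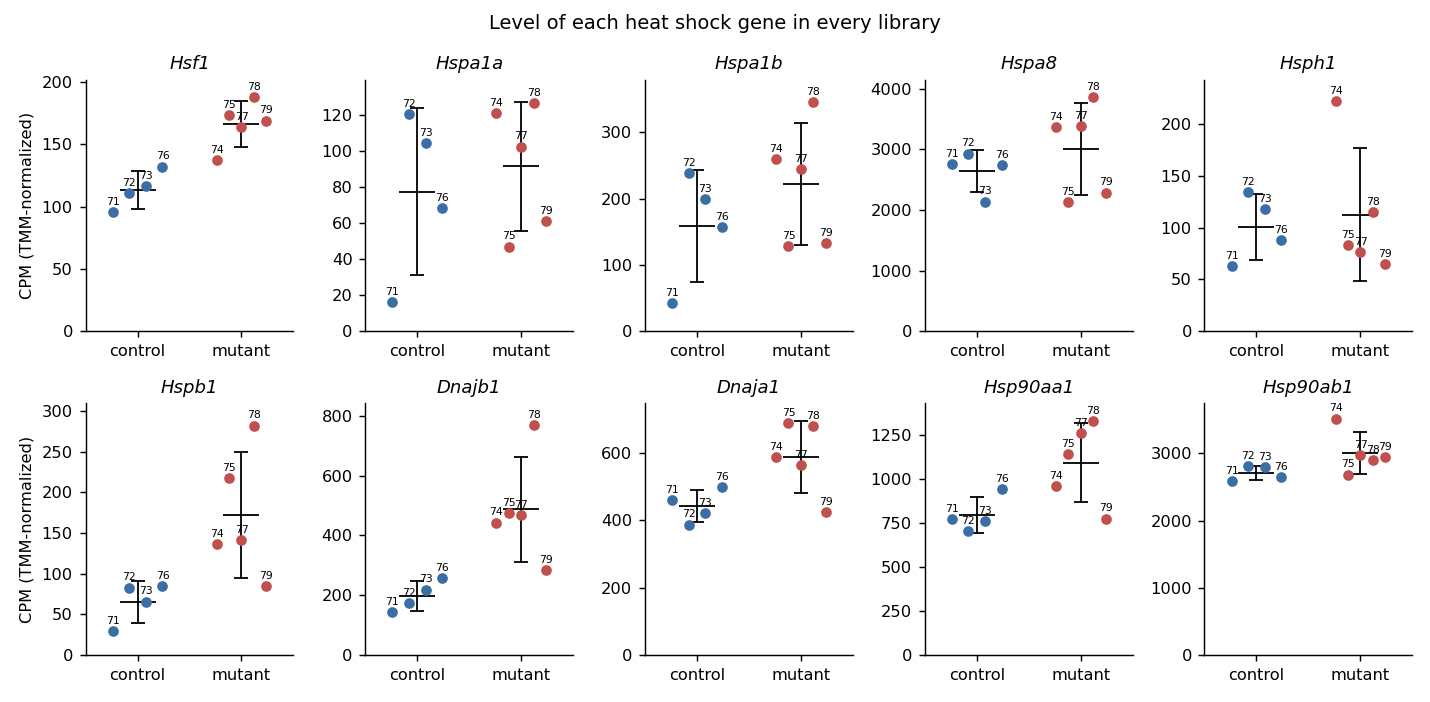
CPM (y axis, from 0) of each of the 10 genes in 4 control (blue) and 5 mutant (red) libraries, with library numbers; bars give the mean and SD. The groups are apart for *Hsf1*, *Dnajb1* and *Hspb1* and overlap for the other 7, and control 71 lies lowest for *Hspa1a* (16.1 CPM) and *Hspa1b* (42.6 CPM).

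*Hsf1*, the factor that activates the heat shock genes, lies on chromosome 15 (chr15:76477445-76500972, plus strand, build mm10). It was at 95.3, 110, 116 and 132 CPM in controls 71, 72, 73 and 76 and at 137, 173, 164, 187 and 169 CPM in mutants 74, 75, 77, 78 and 79. All mutant libraries lay above all control libraries, with mutant 74 nearest to control 76. The means were 113 ± 15.2 CPM (SD, n = 4) and 166 ± 18.4 CPM (SD, n = 5), a log2 fold change of 0.55 (SE 0.13, 95% interval 0.28 to 0.82, edgeR adjusted p = 0.0130). This call was kept under all 17 alternatives, with log2 fold changes of 0.47 to 0.64. Of the related factors, *Hsf2*, which can form mixed trimers with HSF1, was at 16.4 ± 2.49 CPM in controls and 21.5 ± 3.66 CPM in mutants, and *Hsbp1*, a small HSF1-binding protein, was at 323 ± 60.3 and 364 ± 65.7 CPM (edgeR adjusted p = 0.135 and 0.488). *Hsf2bp*, an HSF2-binding protein gene, was lower in mutants (log2 fold change −1.72, edgeR adjusted p = 0.0439) at 14 to 23 reads per control library and 2 to 11 per mutant library. *Hsf4* and *Hsf5* had 3 reads or fewer in every library, the number treated here as a floor.

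*Dnajb1* encodes the J-domain cochaperone that works with inducible HSP70 and is itself a heat shock gene (chr8:83608175-83611902, plus strand). Its levels were 143, 173, 219 and 256 CPM in controls 71, 72, 73 and 76. In mutants 74, 75, 77, 78 and 79 they were 443, 474, 469, 771 and 284 CPM. The groups did not overlap, mutant 79 was the closest to the controls, and mutant 78 stood above the other mutants. The mutant mean of 488 ± 176 CPM was 2.47 times the control mean of 198 ± 49.8 CPM (log2 fold change 1.30, SE 0.25, 95% interval 0.77 to 1.83, edgeR adjusted p = 0.00528). This call also held under all 17 alternatives (1.08 to 1.46).

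*Hspb1* encodes HSP25, a small heat shock protein that holds unfolded proteins and binds actin filaments (chr5:135887919-135889563, plus strand). It was at 28.8, 82.9, 65.7 and 84.7 CPM in controls 71, 72, 73 and 76 and at 136, 217, 141, 282 and 85.1 CPM in mutants 74, 75, 77, 78 and 79. The groups were apart only by the narrow step from control 76 to mutant 79. The means were 65.5 ± 25.9 and 172 ± 77.4 CPM, a ratio of 2.63 (log2 fold change 1.39, SE 0.38, 95% interval 0.55 to 2.23, edgeR adjusted p = 0.0341). The direction held in all 17 alternatives, but the call was lost in 8 of them. It was lost without control 72 (adjusted p = 0.0813), control 73 (0.0978), mutant 74 (0.0573), mutant 75 (0.0677) or mutant 78 (0.0522) in turn, and also with a covariate for Y-linked expression (0.118), with 1 surrogate variable (0.139) or without the low-count filter (0.130), all in edgeR. Without control 71 it was 1.15 (edgeR adjusted p = 0.0465). Of the 100-base windows of its transcripts, 43.98% also occurred in another gene, the pseudogene *Hsp25-ps1* included. The genes with such windows held at most 0.443% as many counts as *Hspb1*. How reads that match several genes were counted is not given, so this share does not show how many *Hspb1* reads were affected. Stroma marker levels rose between the same groups as *Hspb1*, *Dnajb1* and *Hsf1*, and their part in these values was not tested.

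**Figure D2:**
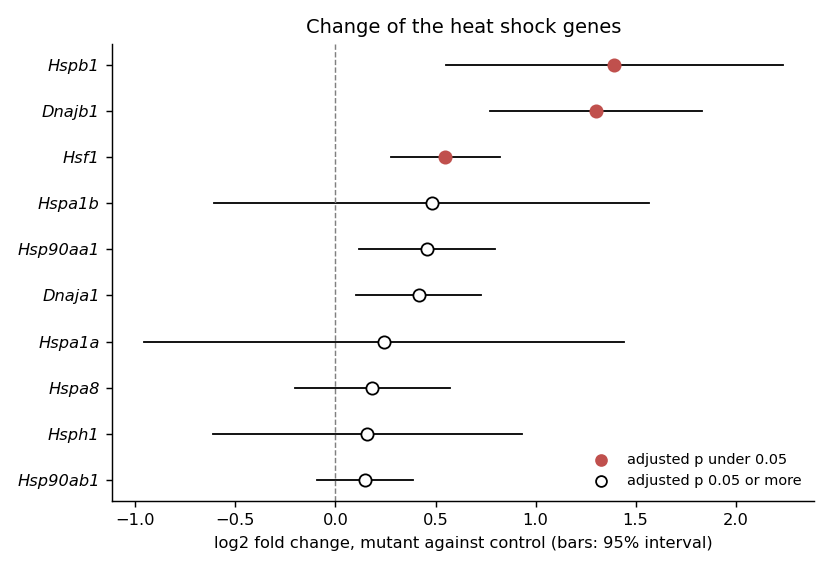
Log2 fold change of the 10 genes, mutant against control, with 95% intervals from the edgeR fit over 14990 genes; filled points have an adjusted p under 0.05. All points lie above 0, from 0.15 for *Hsp90ab1* to 1.39 for *Hspb1*, and the intervals of *Hspa1a*, *Hspa1b* and *Hsph1* are the widest of those that include 0.

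The inducible HSP70 genes *Hspa1a* and *Hspa1b* are single-exon neighbours on the minus strand of chromosome 17 (chr17:34969190-34972156 and chr17:34956436-34959238), 9951 bp apart. *Hspa1a* was at 16.1, 121, 105 and 68.5 CPM in controls 71, 72, 73 and 76 and at 121, 47.0, 103, 127 and 61.3 CPM in mutants 74, 75, 77, 78 and 79. *Hspa1b* was at 42.6, 238, 199 and 157 CPM in the same controls and at 260, 128, 245, 346 and 132 CPM in the mutants. Both genes moved together from library to library, with control 71 lowest, mutants 75 and 79 next, and mutant 78 highest. Within the controls the highest library exceeded the lowest 7.51-fold for *Hspa1a* and 5.58-fold for *Hspa1b*. The log2 fold changes were 0.24 (95% interval −0.96 to 1.44, edgeR adjusted p = 0.796) and 0.48 (−0.61 to 1.57, edgeR adjusted p = 0.541), intervals that include a doubling as well as a fall. With each library left out, *Hspa1b* ranged from 0.16 without control 71 and 0.26 without mutant 78 to 0.74 without control 72.

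Since 47.07% of the 100-base windows of *Hspa1a* and 49.93% of those of *Hspa1b* occur in the other gene, their counts were also summed. How reads that match both genes were assigned is not given. Any left out of both counts would be missing from the sum and from ratios that use it. The sum was 58.7, 359, 304 and 225 CPM in controls 71, 72, 73 and 76 and 381, 175, 347, 473 and 194 CPM in mutants 74, 75, 77, 78 and 79. The means were 237 ± 131 and 314 ± 127 CPM, a log2 difference of 0.58 (2-sided exact permutation test, p = 0.437, where the smallest p that 4 against 5 libraries allow is 0.00794). Without control 71 the difference was 0.01 (exact permutation p = 1.0). The share of each gene in the pair varied little: *Hspa1a* held 0.377 to 0.525 reads for each *Hspa1b* read in controls and 0.366 to 0.466 in mutants. *Hspa1a* also shares 564 bp of exon with *Gm20481* on the opposite strand, which cannot be separated without strand information. Genes outside the pair that share windows held up to 7.96% as many counts as *Hspa1a* and up to 2.997% as many as *Hspa1b*.

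*Hspa8*, the constitutive HSP70 (chr9:40800984-40805200, plus strand), was at 2763, 2931, 2139 and 2747 CPM in controls 71, 72, 73 and 76. In mutants 74, 75, 77, 78 and 79 it was at 3366, 2127, 3387, 3865 and 2286 CPM. Mutants 74, 77 and 78 lay above every control, while mutants 75 and 79 lay among or below them, and the log2 fold change was 0.18 (95% interval −0.20 to 0.57, edgeR adjusted p = 0.519). With each library left out it ranged from 0.08 without mutant 78 and 0.10 without control 73 to 0.29 without mutant 75. Control 71 did not stand low for *Hspa8*. The ratio of *Hspa1a* plus *Hspa1b* reads to *Hspa8* reads, inducible to constitutive HSP70, was 0.0212 in control 71 and 0.0820 to 0.142 in the other controls. In mutants it was 0.0824 to 0.122, within the range of the controls (log2 difference 0.43, exact permutation p = 0.675, 0.675 adjusted over 2 planned ratios). Without control 71 the difference was −0.17 (exact permutation p = 0.464).

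*Hsph1* encodes HSP110, an exchange factor for HSP70 (chr5:149614287-149636376, minus strand). It was at 62.8, 134, 118 and 87.6 CPM in controls 71, 72, 73 and 76 and at 222, 83.2, 76.3, 115 and 64.7 CPM in mutants 74, 75, 77, 78 and 79. Mutant 74 was high and the other mutants lay within the control range. The log2 fold change was 0.16 (95% interval −0.61 to 0.93, edgeR adjusted p = 0.797), and it was −0.25 without mutant 74, −0.01 without control 71 and −0.18 in limma-voom with sample quality weights.

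*Hsp90aa1*, the inducible HSP90 (chr12:110690605-110702728, minus strand), was at 772, 703, 760 and 939 CPM in controls 71, 72, 73 and 76. It was at 958, 1137, 1256, 1327 and 773 CPM in mutants 74, 75, 77, 78 and 79. All mutants but 79 lay above every control. The log2 fold change was 0.46 (SE 0.16, 95% interval 0.12 to 0.80, edgeR adjusted p = 0.0665). It passed the threshold in DESeq2 (adjusted p = 0.0299), in limma-voom (0.00765) and with 1 surrogate variable in edgeR (0.0467), and in edgeR without control 76 (0.0489), mutant 74 (0.0404) or mutant 79 (0.0257). Of its 100-base windows 38.0% occur in other genes, mostly the pseudogene *Gm12346*, and those in the table held at most 1.281% as many counts. For *Hspa8* these values were 28.49% and 0.395%, and the limit given for *Hspb1* applies to both genes.

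*Hsp90ab1*, the constitutive HSP90 (chr17:45567775-45573271, minus strand), was at 2590, 2813, 2792 and 2645 CPM in controls 71, 72, 73 and 76 and at 3519, 2686, 2971, 2898 and 2946 CPM in mutants 74, 75, 77, 78 and 79. It was the steadiest of the 10, with a 1.09-fold range over the controls, and only mutant 75 lay within the control range. The log2 fold change was 0.15 (95% interval −0.09 to 0.39, edgeR adjusted p = 0.392). It passed the threshold in 1 alternative, with 1 surrogate variable (0.20, edgeR adjusted p = 0.0386). The ratio of *Hsp90aa1* to *Hsp90ab1* reads was 0.294 ± 0.0454 in controls and 0.368 ± 0.0928 in mutants, with mutants 74 and 79 at 0.272 and 0.262 and the other mutants at 0.423 to 0.458. The log2 difference of 0.30 was not larger than the spread (2-sided exact permutation p = 0.206, 0.413 adjusted over 2 ratios).

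*Dnaja1*, a farnesylated J-domain partner of HSP70 (chr4:40722150-40737149, plus strand), was at 460, 387, 421 and 499 CPM in controls 71, 72, 73 and 76 and at 589, 688, 564, 681 and 425 CPM in mutants 74, 75, 77, 78 and 79. As for *Hsp90aa1*, all mutants but 79 lay above every control. The log2 fold change was 0.42 (SE 0.15, 95% interval 0.10 to 0.73, edgeR adjusted p = 0.0695), which passed the threshold in DESeq2 (adjusted p = 0.0348), in limma-voom (0.0117) and in edgeR without mutant 79 (0.0239). Its exons overlap those of *Smu1* on the opposite strand by 608 bp, and *Smu1* held 7130 to 9298 reads, so part of the *Dnaja1* count may belong to it. Of its 100-base windows 16.62% occur in other genes, and the 5 of these in the table held up to 86.2% as many counts as *Dnaja1*. Windows were matched on either strand, so *Smu1* can be among these 5, and this share may reflect the same overlap.

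**Figure D3:**
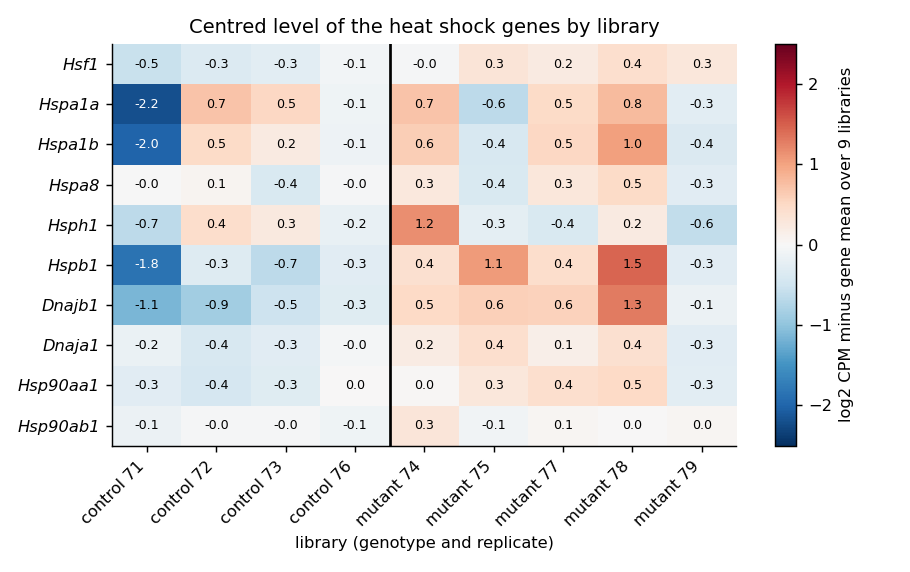
Log2 CPM of each gene minus its mean over the 9 libraries (colour and printed values), genes in rows and libraries in columns, controls to the left of the line. Control 71 is the lowest library for 7 of 10 genes and mutant 78 the highest for 7, while *Hsf1*, *Hspa8*, *Dnaja1* and the HSP90 genes stay nearest to 0.

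Libraries of the same genotype differed in the level of the whole group. The mean centred log2 CPM over the 10 genes was −0.90, −0.06, −0.15 and −0.12 in controls 71, 72, 73 and 76. It was 0.42, 0.09, 0.28, 0.66 and −0.22 in mutants 74, 75, 77, 78 and 79. Mutant 79 thus fell below 3 of the 4 controls, and control 71 stood apart from all other libraries. Control 71 was the lowest library for 7 of the 10 genes and mutant 78 the highest for 7. Without control 71, *Hsf1* (0.47, edgeR adjusted p = 0.0410) and *Dnajb1* (1.17, edgeR adjusted p = 0.0242) still passed the threshold, while *Hspa1a* was at −0.10. Outside these genes and all lists, the 5 genes whose centred log2 CPM over the 9 libraries lay closest to this mean, by root mean square difference, were *Ctps* (0.151), *Slc18a2* (0.178), *Btbd7* (0.179), *Tesk1* (0.197) and *Nolc1* (0.206), out of 9239 candidates above 10 CPM on average. For *Hspa1a* plus *Hspa1b* they were *Dusp5* (0.450), *Gabra5* (0.508), *Fam129b* (0.535), *Zbtb22* (0.538) and *Ticam1* (0.549), a looser likeness.

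Per kilobase of gene length the constitutive chaperones dominated. The full length was used, although the share of 100-base windows found in other genes ran from 0.0% for *Hsp90ab1* to 56.52% for *Hspa1a*. How reads from such windows were counted is not given, and the order below may depend on it. In controls *Hsp90ab1* was at 1075 ± 43.5 CPM per kb, *Hspa8* at 838 ± 110, *Hsp90aa1* at 242 ± 31.0 and *Dnajb1* at 87.5 ± 22.01. *Dnaja1* followed at 78.6 ± 8.56, *Hspb1* at 70.5 ± 27.9, *Hspa1b* at 56.8 ± 30.2, *Hsf1* at 56.2 ± 7.52, *Hspa1a* at 26.1 ± 15.6 and *Hsph1* at 21.1 ± 6.66 CPM per kb. Neighbours in this order had separate ranges only down to *Dnajb1* and between *Hsf1* and *Hspa1a*. In mutants *Hspb1* (185 ± 83.3 CPM per kb) stood before *Dnaja1* (105 ± 19.0) and *Hsf1* (82.3 ± 9.14) before *Hspa1b* (79.3 ± 33.0), with overlapping ranges, and *Dnajb1* was at 216 ± 77.8 CPM per kb. Together *Hspa8* and *Hsp90ab1* made up 70.8% to 76.8% of the summed CPM of the 10 genes in controls and 62.0% to 72.4% in mutants, and the 10 genes held 0.702% to 1.01% of all counts.

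Further ratios within a library, which library scaling does not touch, were chosen after the values of these genes were seen, so they are given as a description with no test. *Dnajb1* reads for each *Hspa8* read were 0.0519, 0.0591, 0.102 and 0.0934 in controls 71, 72, 73 and 76 and 0.132, 0.223, 0.139, 0.199 and 0.124 in mutants 74, 75, 77, 78 and 79. All mutants were above all controls, with a log2 difference of 1.11 that ranged from 0.94 to 1.27 when each library was left out. *Dnajb1* against *Hspa1a* plus *Hspa1b* was 2.44 in control 71 and 0.483 to 1.14 in the other controls, and 1.16 to 2.70 in mutants. That log2 difference was 0.68, and with each library left out it ranged from 0.34 without control 72 to 1.12 without control 71. The log2 difference was 0.81 for *Hspb1* over the same pair, −0.03 for *Hsf1* over the pair, and −0.14 for *Hspa1a* over *Hspa1b*, which was −0.24 without control 71.

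**Figure D4:**
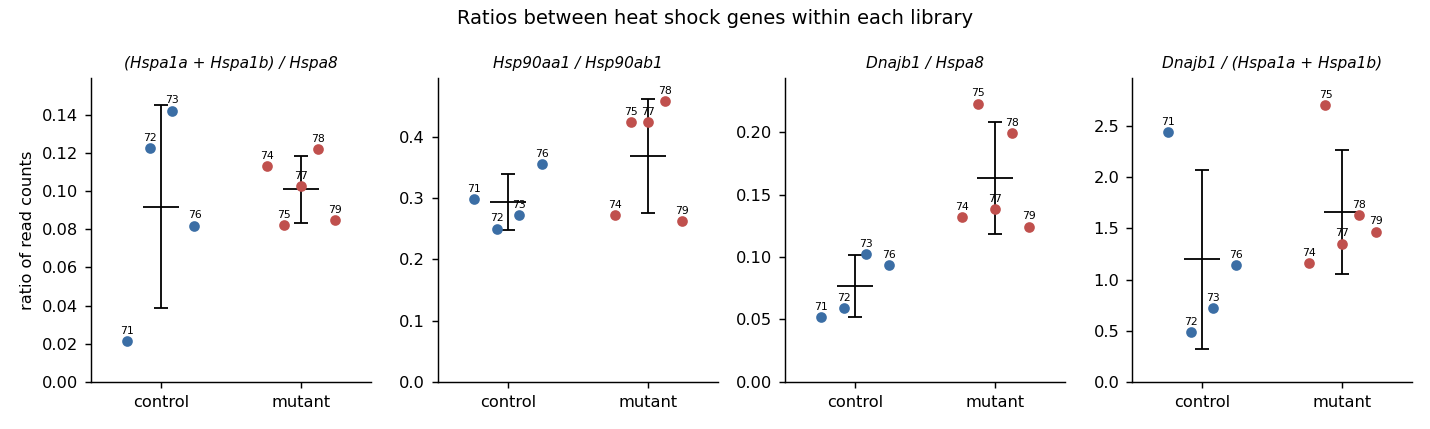
Ratio of read counts (y axes, from 0) in each control (blue) and mutant (red) library, with library numbers and bars for the mean and SD. *Dnajb1* over *Hspa8* separates the genotypes, at up to 0.102 in controls and at least 0.124 in mutants, and the other 3 ratios overlap.

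Related cytosolic chaperone genes were counted in the same fit. In 7 lists of related genes joined, 60 of 68 were tested, of which 5 were higher (*Hspa4*, *Dnaja2*, *Dnaja4*, *Cacybp* and *St13*) and 1 lower (*Hsf2bp*), against 7.82% and 7.02% of all tested genes, with a median log2 fold change of 0.13. *Hspa4*, an HSP110-type exchange factor, was at 93.4 ± 11.6 CPM in controls and 133 ± 9.39 CPM in mutants (log2 fold change 0.51, edgeR adjusted p = 0.0126), with all mutants above all controls. *Dnaja2*, a close relative of *Dnaja1*, was at 189 ± 13.4 and 251 ± 21.9 CPM (0.41, edgeR adjusted p = 0.0231), again without overlap. *St13*, the HSP70-interacting cochaperone HIP, was at 228 ± 8.24 and 284 ± 15.7 CPM (0.32, edgeR adjusted p = 0.0426), without overlap. *Dnaja4*, named after its values were seen, was at 0.675 to 2.02 CPM in controls and 1.18 to 6.61 CPM in mutants (1.68, edgeR adjusted p = 0.0417). Among the partners of HSP90, 1 of 17 was higher, *Cacybp*, the calcyclin-binding protein (0.48, edgeR adjusted p = 0.0469). The most abundant of them, the immunophilin gene *Fkbp4*, *Stip1*, which links HSP70 to HSP90, and the kinase cochaperone gene *Cdc37*, had log2 fold changes of −0.15, −0.10 and −0.04 (edgeR adjusted p = 0.412, 0.563 and 0.796). The small heat shock proteins other than *Hspb1* gave 0 calls among 3 tested, and of the 14 subunits of the TRiC chaperonin and prefoldin 0 passed, with 13 log2 fold changes above 0 and a median of 0.25.

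Of 20 other genes known to be heat inducible through HSF1, the result of 1 is not reported here. Of the 20, 3 were higher, against 7.82% of all tested genes, and the median log2 fold change was 0.07. These were *Dnaja4*, *Cacybp* and *Hspe1*, the mitochondrial HSP10, at 206 ± 25.9 CPM in controls and 313 ± 62.8 CPM in mutants (0.60, edgeR adjusted p = 0.0214). *Ubb*, a polyubiquitin gene, was at 3378 ± 638 and 3589 ± 481 CPM (0.09, edgeR adjusted p = 0.723), and *Hspd1*, the mitochondrial HSP60, at 454 ± 25.8 and 543 ± 42.3 CPM (0.26, edgeR adjusted p = 0.107), with all mutants above all controls. Among 8 chaperones of the endoplasmic reticulum and mitochondrion, 2 were higher and 0 lower, against 7.82% and 7.02% of all tested genes. The 2 were *Hspe1* and *Hspa9*, the mitochondrial HSP70, at 400 ± 50.04 and 577 ± 50.6 CPM (0.53, edgeR adjusted p = 0.0114).

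Immediate early genes, which cells induce rapidly and briefly after many stimuli, were counted beside the heat shock genes. Of 18 tested, 2 were higher (*Klf2* and *Klf6*, named after their values were seen, as was *Jun*) and 5 lower (*Socs3*, *Ier2*, *Fosb*, *Btg2* and *Jun*). The shares over all tested genes were 7.82% higher and 7.02% lower. Of the 18 log2 fold changes 14 were below 0, with a median of −0.79. *Socs3*, an inhibitor of cytokine signalling, was at 106, 157, 130 and 48.4 CPM in controls 71, 72, 73 and 76 and at 19.7 to 64.5 CPM in mutants (−1.64, edgeR adjusted p = 0.0163). *Ier2*, *Fosb* and *Btg2* fell by 1.63, 1.62 and 1.25 on the log2 scale (edgeR adjusted p = 0.00431, 0.0339 and 0.0301). In all 4, control 76 was the lowest control and lay within the range of the mutants. For *Jun*, control 76 was at 53.0 CPM, below every mutant (70.6 to 89.5 CPM), while the other controls were at 164 to 278 CPM. The summed list ranged from 1191 to 4608 CPM in controls and from 1019 to 2192 CPM in mutants, and its part in the heat shock values was not tested.

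**Figure D5:**
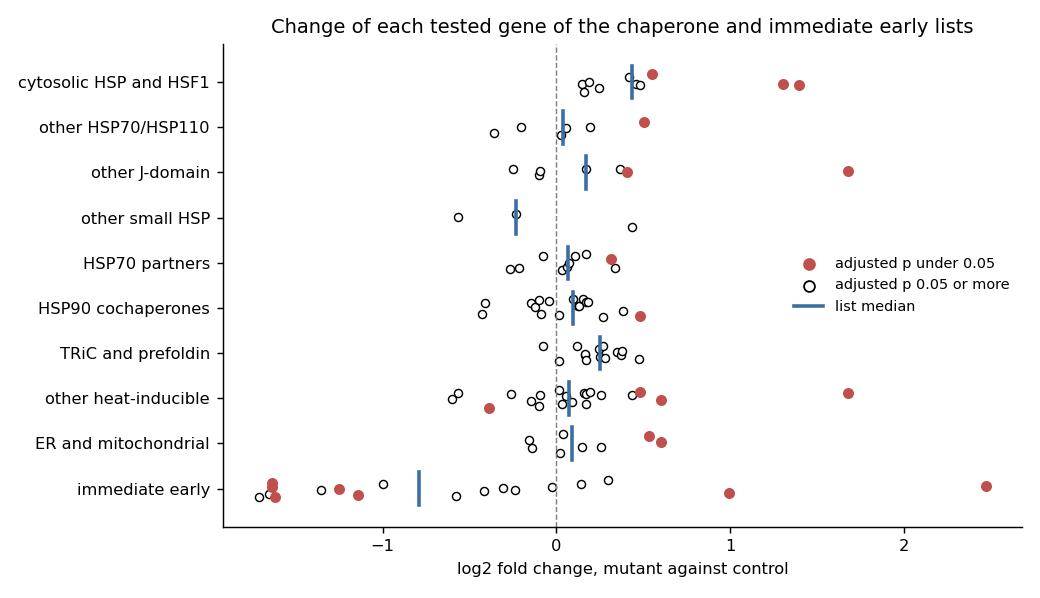
Log2 fold change of each tested gene (points; filled where the edgeR adjusted p is under 0.05) in the cytosolic heat shock genes and 9 related lists, with list medians as vertical bars; vertical scatter within a list has no meaning. The heat shock genes have a median of 0.44, the chaperone lists between −0.23 and 0.25, and the immediate early genes −0.79.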

How the data were processed

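RNA was sequenced by poly(A)-selected, low-input libraries without strand information, and the table gives whole read counts per gene for each of the 9 libraries. According to the submitters' processing notes STAR, DESeq2 and build mm10 were used, without roles, and the counter is not given in the sources used here. The authors' FPKM values equal the deposited counts divided by gene length and library total (100.0% within 1%). The deposited signal columns (means of normalized counts per genotype), log2 fold changes and p-values of the authors' own comparison were not used. Genes were matched by symbol, since only 8 of the 10 gene identifiers are the same in GENCODE M21. Positions of the genes are the deposited ones on mm10, and 7 of the 10 have the same start and end in that annotation.

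The counts were fitted with edgeR 4.0.16 (R 4.3.3): filterByExpr by genotype, TMM, robust quasi-likelihood test and Benjamini-Hochberg adjustment over 14990 genes, threshold 0.05. The SE was taken as |log2 fold change|/√F, and 95% intervals use the total (residual plus prior) degrees of freedom of that fit. On simulated counts for this comparison over 14990 genes, edgeR recovered 100% of the changes of 2 and 83% of those of 1 on the log2 scale. The simulation gave every gene the same dispersion, so these shares do not apply to genes that vary more, such as *Hspa1a* and *Hspa1b*. For a sum or ratio per library, every split into 4 and 5 libraries was enumerated (exact permutation, 2-sided). With 21040536 to 23986458 counts per library, values near the floor of 3 reads are imprecise, and no interval given covers more than these libraries. Ranges and SDs are over libraries.

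The genes, lists and alternatives were chosen with earlier results of these data known. Genes named besides the 10 were *Uqcrq*, related heat shock factors, up to 4 called genes of each list with the largest changes among those with a mean of at least 10 CPM, the 3 most abundant of the HSP90 partners and heat-inducible genes, and the 5 genes most alike in profile. The result of 1 heat-inducible gene is not reported here. *Dnaja4*, *Klf2*, *Klf6*, *Jun*, *Smu1* and the genes that share sequence fell outside this rule. Alternatives were DESeq2 1.42.0, limma-voom with quality weights (limma 3.58.1), RLE and upper-quartile normalization, filters of 1 count in any library and 10 counts in every library, 1 surrogate variable (sva 3.50.0), a Y-linked covariate and each library left out. Upstream sequences are from RefSeq (GRCm38.p6). Windows of 100 bases were taken from GENCODE transcripts.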

Additional observations from a re-analysis of the deposited data

Results flagged for a closer look

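Of 78 groups of libraries examined for a value far from the rest, 5 held one, where chance alone flags about 1 in 20 groups (3.9 here). The mean centred log2 CPM of the 10 heat shock genes was −0.90 in control 71, while the next control was at −0.15. *Hspb1* reads for each *Hspa1a* or *Hspa1b* read were 1.24 in mutant 75, and the next mutant was at 0.597. *St13* was at 240 CPM in control 71, with the next control at 225 CPM, a gap that is small against the difference between genotypes. *Ier2* was at 403 CPM in mutant 75 and at most 244 CPM in the other mutants. *Fosb* was at 3.67 CPM in control 76 and at least 22.6 CPM in the other controls.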

How the results depend on the processing

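*Hsf1* and *Dnajb1* kept their direction and their call under all 17 alternatives, and *Hspb1* kept its direction under all 17 and its call under 9. The number of the 10 genes called was 5 in DESeq2 and 5 in limma-voom, in both cases with *Hsp90aa1* and *Dnaja1* added, and 2 to 5 when each library was left out (5 without mutant 79). Of all 14990 tested genes 3184 passed in DESeq2 and 4858 in limma-voom, against 2225 in edgeR. When each library was left out, the filter kept 14790 to 15306 genes, and 1046 to 3136 of those kept passed. The count was 1354 without control 71, 1272 without control 72, 1046 without control 73 and 1336 without mutant 78. Without mutant 79, 1739 of 14805 tested genes passed. With libraries left out, *Hspa1a* ranged from −0.10 to 0.54 and *Hsph1* from −0.25 to 0.33 in log2 fold change. Signs turned for *Hspa1a* without control 71 (−0.10), and for *Hsph1* in limma-voom (−0.18), without control 71 (−0.01) and without mutant 74 (−0.25). The log2 difference in *Hspa1a* plus *Hspa1b* over *Hspa8* ranged from −0.17 to 0.74 over the libraries left out, negative without control 71. *Hsf1* over *Hspa1a* plus *Hspa1b* ranged from −0.33 to 0.47, above 0 without control 71 (0.47), mutant 74 (0.13), mutant 77 (0.03) or mutant 78 (0.10). The cause of these changes was not tested. Scaling moved the median of all genes by less than 0.1 on the log2 scale. No paired analysis was possible because the replicate numbers in the labels are not shared between the genotypes. With 4 and 5 libraries, the intervals of *Hspa1a*, *Hspa1b* and *Hsph1* include changes of more than 1.5-fold either way.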
